A study of Danio rerio with 6 samples.

Results

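The cytoplasmic ribosomal protein genes of the zebrafish are described here in the tails of siblings and mettl16-/- embryos. A gene was taken when its Ensembl identifier was listed with a symbol that starts with rpl or rps and a digit, or with rplp0, rplp1, rplp2 or rpsa, while rps6k kinases, rps27l and names with like or pseudogene were left out. The rule took 81 of the 26375 identifiers counted, of which 25197 are Ensembl genes and 23499 have a symbol. Of these 81 genes, 45 encode proteins of the large subunit and 34 proteins of the small subunit. The other 2, rpl7l1 and rps19bp1, carry the name but encode proteins of neither subunit. In human cells RPL7L1 takes part in assembly of the large subunit, and RPS19BP1 binds Rps19. The 81 genes have 77 different symbols, because 4 symbols, rpl5 and rps26 among them, are each listed for 2 identifiers. Some symbols follow human usage in the table of names (rps4y2, rpl36al), and they are kept as listed.

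The study asked what the loss of Mettl16, an enzyme that places N6-methyladenosine on RNA, does to blood stem and progenitor cells in the caudal hematopoietic tissue of the tail. RNA was sequenced from tails with this tissue, 3 libraries of siblings and 3 of mettl16-/- embryos, each from the pooled tails of many embryos whose heads were used for genotyping. All embryos were 3 days post fertilization and untreated. The mettl16-/- line was made with CRISPR/Cas9, the labels give the siblings as mettl16+/+, and both groups carry replicate numbers 1, 2 and 3, whose meaning is not stated. The libraries held 16239791 to 18541402 counts. The targeted gene mettl16 was counted 104, 120 and 117 times in siblings and 64, 59 and 86 times in mettl16-/- libraries, without overlap (log2 fold change -0.63, SE 0.211, edgeR adjusted p = 0.9999, and 0.0683 when the replicate number is a block). The tails hold muscle, skin, nerve, vessels and blood together, so fewer cells of a type and less RNA per cell cannot be told apart in any value given here, and p-values measure the spread between these pooled libraries.

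A cytoplasmic ribosome is built from ribosomal RNA and one copy of most of its proteins. The small subunit reads the mRNA, and the large subunit joins the amino acids and releases the chain through its exit tunnel. In vertebrates the mRNAs of these proteins start with a pyrimidine tract that links their translation to the mTOR kinase and the RNA-binding protein Larp1. Mutations that remove one copy of such a gene cause Diamond-Blackfan anaemia in humans, and zebrafish mutants of several of them have defects of red blood cells or blood stem cells.

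None of the ribosomal protein genes differed between mettl16-/- and sibling tails beyond the spread between libraries by the tests made. Large subunit mRNAs had a median log2 fold change of 0.032 (lowest -0.017, highest 0.11, mettl16-/- over sibling) and small subunit mRNAs one of 0.0030 (lowest -0.076, highest 0.10), where the median of all 18487 genes tested was -0.0032. With edgeR's quasi-likelihood test and Benjamini-Hochberg adjustment over all genes, 0 of 80 members tested had an adjusted p below 0.05, where 0.124% of all genes did. At an unadjusted p below 0.05 edgeR also gave 0 of 80, where all genes gave 2.17%. DESeq2 called 0 of 80 too, against 0.325% of all genes. The other member was left out by the filter on low counts and was not tested.

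Nearly all of the estimates lay close to 0. The fitted log2 fold change was within 0.1 of 0 in 75 of 80 members (43 of 45 large and 32 of 33 small subunit genes), and in 9011 of all 18487 genes. The median standard error was 0.108 for members and 0.187 for all genes. The replicate number was taken to pair the libraries, by correlations given with the replicate pattern, although the labels do not state this. In a fit with this block the median standard error of members was 0.0470, and its intervals rest on this pairing. In that fit the 95% interval of the difference lay within 0.4 of 0 on the log2 scale in all 80 members and within 0.2 in 75 of them, against 9336 and 2535 of all genes. Without the block the interval lay within 0.4 in 65 of 80 members, and the most distant bounds were -0.56 and 0.76, both of rps29.

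**Figure D1:**
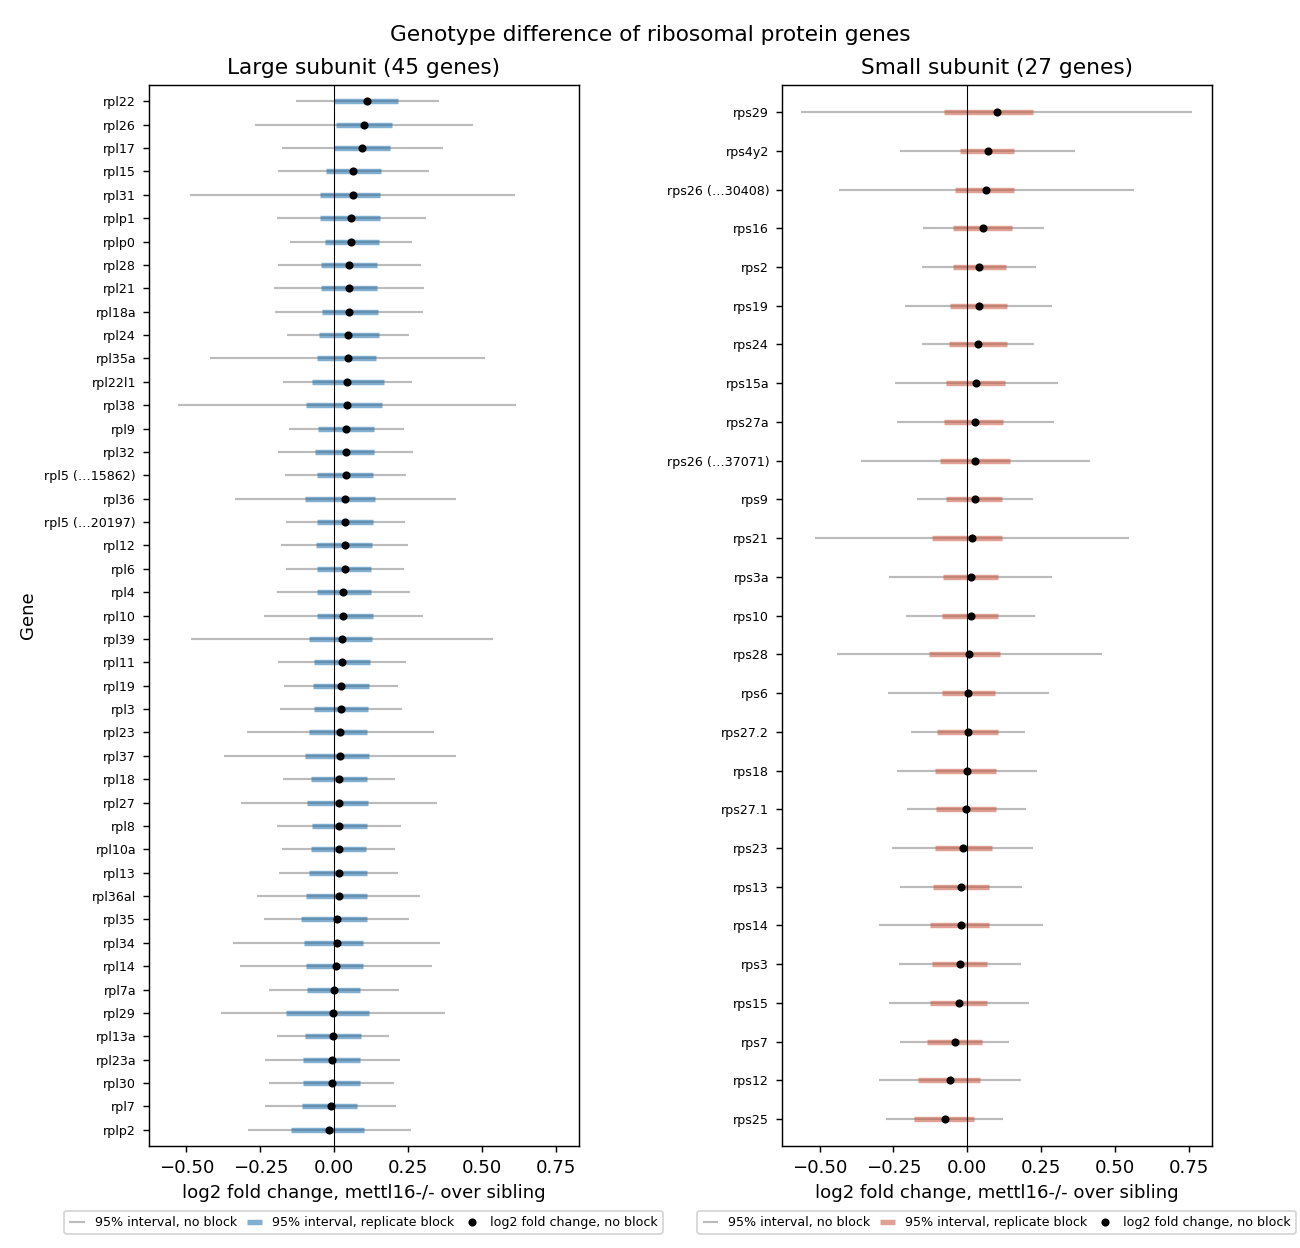
Log2 fold change of ribosomal protein genes, mettl16-/- over sibling (horizontal axis, log2 scale), for 45 large subunit genes (left) and 27 of the 33 small subunit genes (right), ordered by the estimate. Points are estimates of the fit without a block, grey lines their 95% intervals and thick lines the 95% intervals with the replicate block; all points lie between -0.076 and 0.11, and the grey lines reach farthest in rps29.

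In the fit with the block, 0 of 80 members had an adjusted p below 0.05, where 1.04% of all genes did. At an unadjusted p below 0.05 it gave 3 of 80 members, where all genes gave 9.2%. These 3 are rpl22, rpl26 and rpl17, all large subunit genes with higher estimates in mettl16-/- tails, and 4.85% of all genes were past that threshold in this direction. None of the 3 passed the adjusted test.

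The large subunit gene with the highest estimate was rpl22, whose protein binds RNA and is dispensable for translation in general but needed for T cell development in mice and zebrafish. It had 197, 171 and 187 CPM (counts normalised to library size with edgeR's TMM factors) in siblings 1, 2 and 3 and 211, 174 and 216 in mettl16-/- libraries 1, 2 and 3. Within each replicate number the mettl16-/- library was the higher one, while sibling 1 and sibling 3 were above mettl16-/- library 2, so the groups overlap. The log2 fold change was 0.11 (SE 0.108, edgeR adjusted p = 0.9999, and 0.537 with the block), and it ranged from 0.056 to 0.20 with 1 library left out. Its paralog rpl22l1, needed for the emergence of blood stem cells in zebrafish, had 69.8, 63.7 and 59.3 CPM in siblings and 69.9, 65.7 and 63.4 in mettl16-/- libraries. The share of rpl22l1 in the counts of both genes was 26.1%, 27.11% and 24.1% in siblings and 24.9%, 27.4% and 22.7% in mettl16-/- libraries, with overlapping groups.

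The next gene was rpl26, whose protein sits at the rim of the exit tunnel. Its level was 1113, 764 and 911 CPM in siblings and 1150, 809 and 1030.3 in mettl16-/- libraries. Each mettl16-/- library was above the sibling of the same number, yet replicate 2 of both genotypes was below all 4 other libraries. The log2 fold change was 0.10 (SE 0.163, edgeR adjusted p = 0.9999, and 0.499 with the block). For rpl17, another protein of the tunnel exit, the levels were 857, 673 and 769.8 CPM in siblings and 917, 710.5 and 830.2 in mettl16-/- libraries. Again the order within each number was the same and the groups overlapped (log2 fold change 0.096, SE 0.123, edgeR adjusted p = 0.9999, and 0.536 with the block). With 1 library left out the log2 fold change of rpl17 ranged from 0.0084 to 0.19.

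These 3 genes all stand in a list of 8 proteins at the rim of the exit tunnel. The list was written with earlier results of these data known, and it supports nothing beyond its counts. Its median log2 fold change was 0.045, and all its genes are of the large subunit. Of its 8 estimates 7 were above 0, against 84.4% of large subunit genes and 49.1% of all genes. Its summed level was 5348, 4207 and 4729.8 CPM in siblings and 5558, 4182 and 5093 CPM in mettl16-/- libraries. In replicate 2 the sum was lower in the mettl16-/- library, so the order did not hold in every number.

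Among small subunit genes the highest estimate was that of rps29, a small zinc-binding protein whose zebrafish mutant is a model of Diamond-Blackfan anaemia. Its levels were 119.9, 73.9 and 97.4 CPM in siblings and 127.9, 65.0 and 119.2 in mettl16-/- libraries. The spread between replicate numbers was wider than any difference between genotypes, and in replicate 2 the mettl16-/- library was the lower one. The log2 fold change of 0.10 had an SE of 0.280. The gene listed as rps4y2, of the S4 family of the small subunit, had 1734, 1321 and 1481 CPM in siblings and 1822, 1358 and 1577 in mettl16-/- libraries. Its log2 fold change was 0.069 (SE 0.133), with the higher library in each number from the mettl16-/- group and overlapping groups.

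The groups did not overlap in 1 of 80 members, which was lower in mettl16-/- tails, and 0 were higher without overlap, where 3.43% of all genes were lower and 3.46% higher, 6.89% in both directions. That member had an edgeR adjusted p of 0.9999. The lowest estimate in the small subunit was that of rps25, a head protein that viral and some cellular internal ribosome entry sites need. It had 415, 406 and 390.5 CPM in siblings and 405, 357 and 387 in mettl16-/- libraries, lower in each number but with overlapping groups (log2 fold change -0.076, SE 0.0888). For rps12, also of the head, the levels were 619, 541 and 561 CPM in siblings and 585, 477 and 590.5 in mettl16-/- libraries, with the order reversed in replicate 3 (log2 fold change -0.058, SE 0.108).

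Both genes outside the subunits had lower estimates than any subunit gene. For rps19bp1 the levels were 12.7, 15.7 and 16.6 CPM in siblings and 13.2, 14.7 and 12.6 in mettl16-/- libraries, and for rpl7l1 they were 30.7, 34.6 and 42.2 against 29.7, 31.4 and 37.5. The log2 fold changes were -0.15 (SE 0.145) and -0.12 (SE 0.141), and neither gene passed the test. Here rpl7l1 was lower in each replicate number, and its groups overlapped.

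Other members follow by their place in the ribosome. The stalk proteins rplp0, rplp1 and rplp2 recruit elongation factors to the large subunit. The level of rplp0 was 2789, 2438 and 2834 CPM in siblings and 2822, 2691 and 2876 in mettl16-/- libraries, higher in each number with overlapping groups (log2 fold change 0.058, SE 0.0926). For rplp1 and rplp2 the log2 fold changes were 0.058 (SE 0.113) and -0.017 (SE 0.124). The related gene listed as rplp2l, which the rule does not take, had a log2 fold change of 0.032 and more counts than rplp2 in every library (8376 to 11015).

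Rpl5 and Rpl11 travel with 5S ribosomal RNA into the large subunit. The rpl5 genes had log2 fold changes of 0.039 (SE 0.0923) and 0.038 (SE 0.0901), and rpl11 one of 0.025 (SE 0.0973). The levels of rpl11 were 596, 514.5 and 575 CPM in siblings and 599.7, 527 and 589 in mettl16-/- libraries, a difference that is smaller than that between numbers.

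Genes mutated in human Diamond-Blackfan anaemia were looked at as a list, since the study concerns blood. Of 23 members of this list 0 were called, where 0.124% of all genes were, and the median was 0.027. Estimates were above 0 in 20 (87.0%) and below 0 in 3, where 71.25% of all members and 49.1% of all genes were above 0. The gene most often mutated in patients, rps19, had 606, 504.6 and 575 CPM in siblings and 634, 508 and 591 in mettl16-/- libraries. Its log2 fold change was 0.039 (SE 0.112), with overlapping groups. A list of 14 proteins of the small subunit head had a median of 0.0010, with 7 estimates above 0 and 7 below. In it 0 genes were called, where 0.124% of all genes were called and 49.1% had estimates above 0. The most abundant members by counts, rplp0, rps2 and rpl3, had log2 fold changes of 0.058, 0.040 and 0.022. Rps2 lines the entry of the mRNA channel and Rpl3 reaches to the site of peptide bond formation.

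The summed level of each subunit was close between the genotypes. Large subunit genes summed to 37311, 32006 and 35609 CPM in siblings and 38267, 32368 and 36687 in mettl16-/- libraries (34975 ± 2708 and 35774 ± 3054, SD, n = 3). The mettl16-/- library was higher by 2.56%, 1.13% and 3.03% in replicates 1, 2 and 3, and the groups overlapped. Small subunit genes summed to 23221, 20160 and 21952 CPM in siblings and 23510.5, 19868 and 22374 in mettl16-/- libraries (21777 ± 1538 and 21917 ± 1864, SD, n = 3). Here the difference was 1.25%, -1.45% and 1.92%, so its sign changed with the number. The direction of these sums also depends on the scaling. As a share of all counts, without TMM factors, the genes of both subunits together took 6.06%, 5.47% and 5.78% in siblings and 6.08%, 5.21% and 5.67% in mettl16-/- libraries, so that their mean differed by -2.08% on this scale and by 1.65% on the TMM scale.

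**Figure D2:**
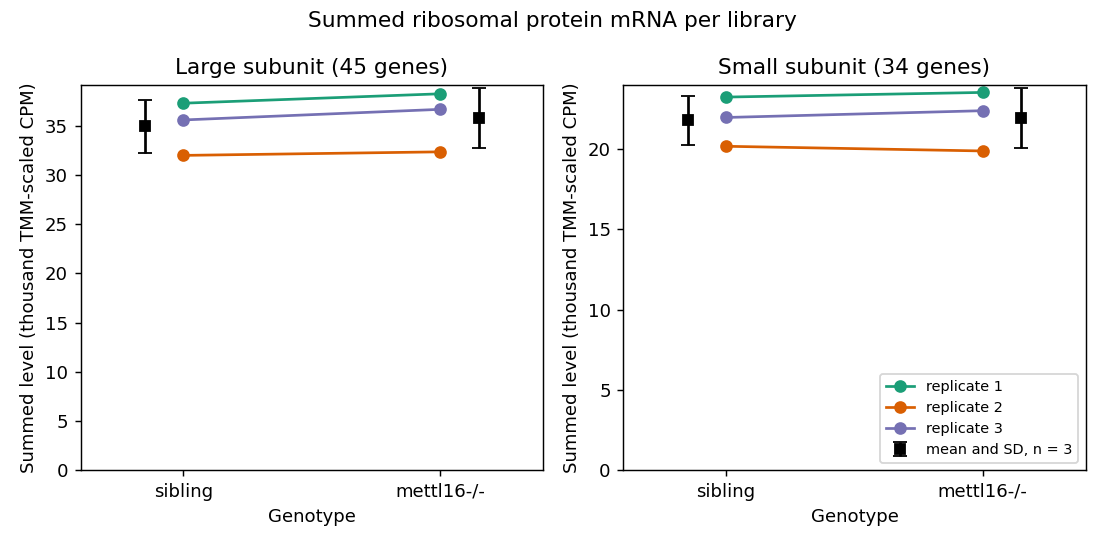
Summed CPM of large subunit genes (left, 45 genes) and small subunit genes (right, 34 genes) in each library, divided by 1000, by genotype. Coloured points are libraries joined by replicate number, and black squares with bars are means and SD (n = 3); the 2 libraries of replicate 2 are the lowest in both panels, and the genotypes overlap.

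The signs of the estimates were less even in the large than in the small subunit. In the large subunit 38 of 45 estimates (84.4%) were above 0, in the small subunit 19 of 33 (57.6%), and among all genes 49.1%. Higher in the mettl16-/- library of every replicate number were 13 of 45 large subunit genes (28.9%) and 3 of 33 small subunit genes (9.09%), against 15.0% of all genes. Lower in every number were 0 large subunit genes and 6 small subunit genes (18.2%), against 14.9% of all genes. The large subunit genes that were higher in every number are rpl28, rpl15, rpl22l1, rpl21, rpl9, rpl10a, rpl11, rplp0, rpl17, rpl6, rpl22, rpl35a and rpl26. The small subunit genes are rps4y2, rps19 and rps2 for higher, and rps13, rps25, rps7, rps15 and rps3 are among those for lower. Genes of one subunit vary together in these libraries, so these counts are a description and no test was made of them. They also hold on the TMM scale only. As a share of all counts, the large subunit sum differed by 0.84%, -3.90% and -1.61% in replicates 1, 2 and 3. The small subunit sum differed by -0.46%, -6.34% and -2.66% on that scale. The large subunit median of 0.032 turned to -0.025 without sibling 2 and to -0.020 without mettl16-/- library 1, and it stayed above 0 without each of the 4 other libraries and without both libraries of any number.

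The ratio of the summed levels, which no scaling of whole libraries can move, was 1.61, 1.59 and 1.62 in siblings and 1.63, 1.63 and 1.64 in mettl16-/- libraries. The means were 1.61 ± 0.0173 and 1.63 ± 0.00657 (SD, n = 3), a difference of 1.66% between the means, and the mettl16-/- library was higher by 1.301%, 2.61% and 1.08% in replicates 1, 2 and 3. The lowest mettl16-/- ratio (1.628) was just above the highest sibling ratio (1.622), so the groups did not overlap. The sums hold only genes that the rule takes. They leave out rplp2l in the large subunit, and fau, rack1 and the gene listed as RPSA2, described below, in the small. Over the libraries rack1 had 1635 to 1937 CPM and RPSA2 1800 to 2079. With all of these genes added to their sums, the ratio of sibling 3 was above that of mettl16-/- library 2, so the groups then overlapped. Without the most abundant gene of each subunit, rplp0 and rps2, the ratios were 1.663, 1.663 and 1.696 in siblings and 1.687, 1.711 and 1.715 in mettl16-/- libraries, and sibling 3 was then above mettl16-/- library 1. The separation of the groups thus rests on the choice of genes, although the order within each number did not change. The ratio of the mitochondrial ribosome, a separate machine whose proteins are made from other nuclear genes, was 1.716, 1.701 and 1.778 in siblings and 1.781, 1.676 and 1.753 in mettl16-/- libraries. There the change was 3.79%, -1.44% and -1.45%, without a common sign.

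**Figure D3:**
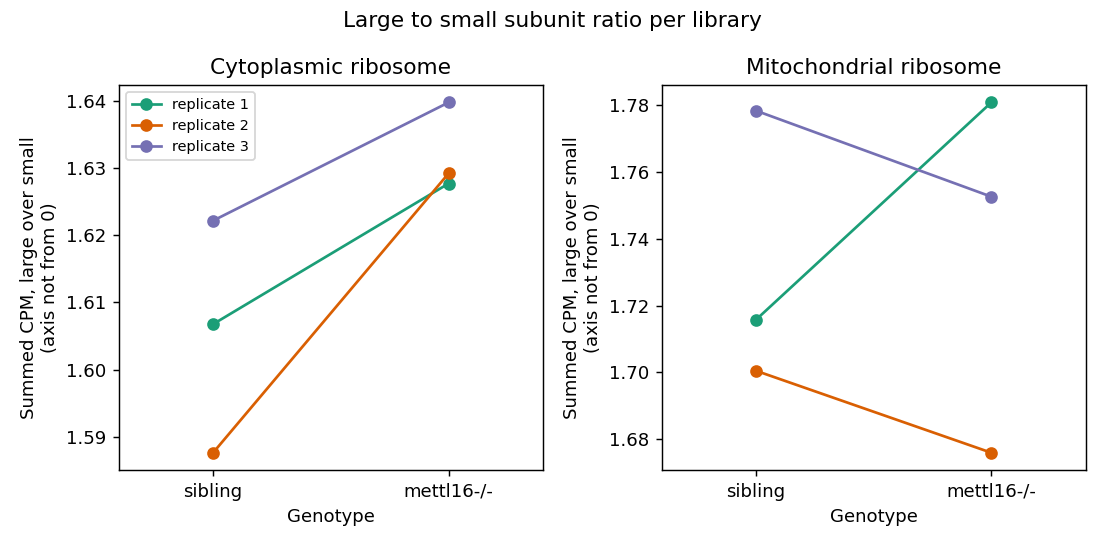
Ratio of the summed CPM of large over small subunit genes in each library, for the cytoplasmic ribosome (left, genes taken by the rule only) and the mitochondrial ribosome (right), by genotype. Libraries of one replicate number are joined by a line. The vertical axes do not start at 0 and span a few percent; the cytoplasmic ratios are 1.588 to 1.622 in siblings and 1.628 to 1.640 in mettl16-/- libraries, while the mitochondrial ones overlap.

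The levels of most of these genes differed more between replicates 1 and 2 than between genotypes. In 75 of 80 members (44 of 45 large and 31 of 33 small subunit genes) the mean of the libraries numbered 1 was above that of the libraries numbered 2, where 50.1% of all genes had this order. The median difference was 0.23 on the log2 scale for members and 8.6e-04 for all genes. In 77 of 80 members it was larger than the log2 fold change between genotypes, as it was in 12810 of all 18487 genes. Replicates 1 and 2 were the highest and the lowest in the median member. This contrast is thus the widest between numbers, and setting it beside the genotype difference favours the replicate number. By the median member, the libraries fall in the order 1, 3, 2 in both genotypes. The median large subunit gene deviated from its own mean by 0.084, -0.14 and 0.024 in siblings 1, 2 and 3 and by 0.13, -0.14 and 0.071 in the mettl16-/- libraries. The median small subunit gene did so by 0.095, -0.087 and 0.0068 in siblings and 0.12, -0.16 and 0.049 in mettl16-/- libraries.

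**Figure D4:**
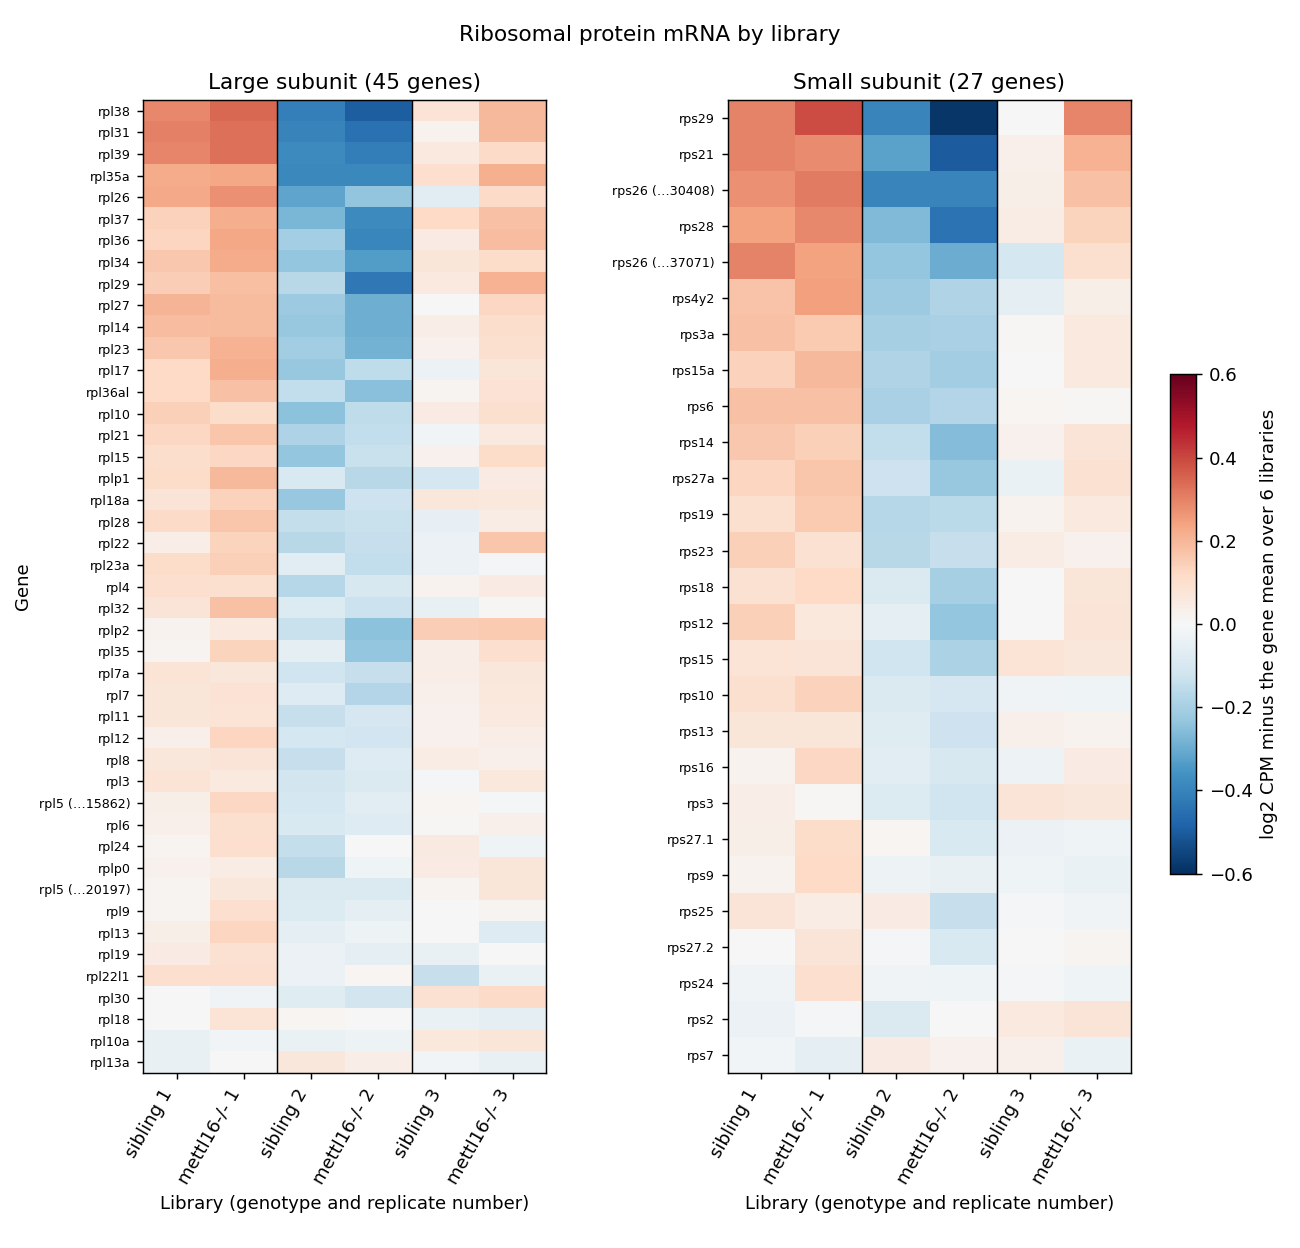
Log2 CPM of ribosomal protein genes minus its mean over the 6 libraries (colour, red above and blue below the mean), for 45 large and 27 of the 33 small subunit genes (vertical axes), in libraries ordered by replicate number (horizontal axes). Genes are ordered by the difference between replicates 1 and 2; columns of the same number look alike across genotypes, with replicate 1 red and replicate 2 blue in most genes.

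Members differed in the size of this replicate difference. It was largest in rps29 (0.84), rpl38 (0.77), rpl31 (0.74), rpl39 (0.71), rps21 (0.70), the rps26 gene ENSDARG00000030408 (0.69), rps28 (0.62) and rpl35a (0.61), all on the log2 scale. Rps21, Rps28, Rps29, Rpl38 and Rpl39 are among the smallest proteins of the ribosome; transcript lengths were not used here, so a relation with length was not tested. The level of rpl38, whose loss in mice changes the skeleton of the trunk, was 71.0, 43.8 and 61.6 CPM in siblings and 73.9, 41.4 and 66.7 in mettl16-/- libraries. The level of rpl39, which lines the exit tunnel, was 207, 129 and 175 CPM in siblings and 212, 126 and 182 in mettl16-/- libraries. In both genes replicate 2 stood below all others in either genotype, and libraries of the same number were close.

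Few members lacked this pattern. In rpl10a, which encodes a protein of the L1 stalk of the large subunit, the difference was 0.0053, and in rps2 it was 0.022. Among others it was below 0 in rpl13a (-0.078) and rps7 (-0.074), and in rpl7l1 (-0.13) and rps19bp1 (-0.23). So rpl7l1 and rps19bp1, which are not parts of the ribosome, went against the subunit genes in this respect as well.

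**Figure D5:**
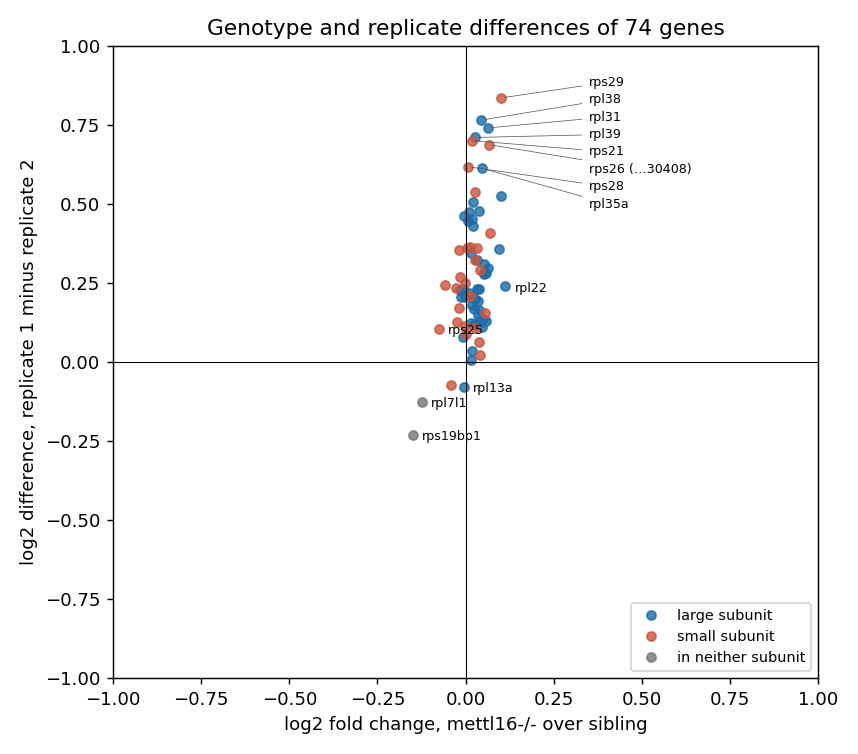
Log2 fold change of mettl16-/- over sibling (horizontal axis) and log2 difference of replicate 1 minus replicate 2 over both genotypes (vertical axis) for 74 of the 80 genes tested, on the same scale. Points are genes, coloured by subunit; they form a narrow upright band, within -0.15 and 0.11 on the genotype axis and between -0.23 and 0.84 on the replicate axis.

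Deviations from the group means showed the same in numbers. Across the 80 members, the sibling and the mettl16-/- library that share a number had a correlation of 0.907 (replicate 1), 0.896 (replicate 2) and 0.465 (replicate 3). Across all genes the values were 0.586, 0.312 and 0.518. They were taken over genes of the same libraries, which do not count as replicates. Sibling 1 and mettl16-/- library 3 also deviated together across members (0.508), whereas replicates 1 and 2 of opposite genotypes deviated in opposite ways (-0.826 and -0.837). The deviations of a gene cancel out within each genotype, so these negative values follow in part from the positive ones between same-numbered libraries.

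Other genes of the translation machinery had a different pattern over the numbers. The summed level was higher in replicate 1 than in replicate 2 by 17.4% for large and 16.8% for small subunit genes. It was higher by 4.53% for 59 translation factors and by 0.23% for 75 mitochondrial ribosomal proteins, and for 88 ribosome biogenesis factors it was -12.7%. For ncl, which encodes the nucleolar protein nucleolin, the levels were 380.5, 480.1 and 574 CPM in siblings and 378, 508 and 557 in mettl16-/- libraries, lowest in replicate 1. The share of counts from mitochondrially encoded genes was also lowest in replicate 1, with 2.02%, 2.74% and 2.52% in siblings and 2.15%, 2.78% and 2.53% in mettl16-/- libraries. Summed genes of skeletal muscle, the most abundant tissue marker list, were at 219890, 177701 and 199093 CPM in siblings and 227142, 208203 and 223861 in mettl16-/- libraries, so they were lowest in replicate 2 and higher in the mettl16-/- library of each number. Of 18 muscle genes edgeR called 0, where 0.124% of all genes were called, and 3 with the block, all higher, where 1.04% were. Of 15 erythroid genes 13 had estimates above 0, where 49.1% of all genes did, and edgeR called 0, and 1 as higher with the block. Erythroid markers summed to 4583, 4166 and 3334 CPM in siblings and 5406, 4013 and 3460 in mettl16-/- libraries, with overlapping groups and both replicate 1 libraries highest within their genotype. Epidermal markers were at 30975, 27238 and 25738 CPM in siblings and 31840, 27645 and 28462 in mettl16-/- libraries, again with replicate 1 on top in each genotype. Like the subunit genes, these tissue lists were higher in replicate 1 than in replicate 2, by 22.1% (erythroid), 15.8% (skeletal muscle) and 14.5% (epidermis). For the other marker lists this difference was 0.53% (myeloid), -1.64% (endothelial), -2.64% (proliferation), -4.40% (nervous system), -10.6% (exocrine pancreas) and -10.7% (blood stem and progenitor cells). Markers of the exocrine pancreas, which makes digestive enzymes, summed to 75.4, 79.2 and 245 CPM in siblings and 33.03, 42.0 and 55.9 in mettl16-/- libraries. These groups did not overlap, all 10 estimates were below 0, and edgeR called 0 of the 10 genes, and 5 as lower with the block. Myeloid markers were at 130.8, 128.8 and 127.3 CPM in siblings and 120.7, 121.4 and 121.4 in mettl16-/- libraries, without overlap and with 0 of 12 genes called in either fit. Blood stem and progenitor markers summed to 865 to 1009 CPM in siblings and 903 to 990.1 in mettl16-/- libraries, with overlapping groups. Of 13 such genes tested, 11 had estimates below 0 and 2 above (median -0.092), where 49.1% of all genes were above 0. The groups did not overlap in 1 of them, which was lower, where 3.43% of all genes were. None of these genes was called in either fit. The part of these tissues in the levels of the ribosomal protein genes was not tested.

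Several ribosomal proteins are encoded by more than one gene in zebrafish, and the counting tool and its treatment of reads that fit several genes are not given in the sources used here, so the split between such genes is uncertain. The share of ENSDARG00000015862 in the counts of both rpl5 genes was 51.0%, 50.4% and 50.6% in siblings. In mettl16-/- libraries it was 51.7%, 51.1% and 49.2%, so the groups overlapped. The rps26 gene ENSDARG00000030408 had 71.5% to 75.6% of the counts of its pair, and rps27.1 had 56.9% to 58.2% of those of rps27.1 and rps27.2. None of these 6 genes was called, and their highest log2 fold change was 0.065, that of ENSDARG00000030408.

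Some ribosomal proteins are made from genes that the rule does not take by name. These are fau, which encodes Rps30 fused to a ubiquitin-like protein, rack1, a scaffold on the small subunit, and the gene listed as RPSA2. Their log2 fold changes were 0.043 (SE 0.120), 0.030 (SE 0.0986) and 0.044 (SE 0.0925), and edgeR called 0 of them. The levels of rack1 were 1919, 1635 and 1899 CPM in siblings and 1937, 1722 and 1909 in mettl16-/- libraries, lowest in replicate 2 like most members.

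Counts of called genes in the pathway around the ribosome were near those of all genes, of which edgeR called 0.124%, and 1.04% with the block, so a single call is no result about its list. Among 88 ribosome biogenesis factors the median log2 fold change was 0.012 and edgeR called 0, and with the block it called 1, nmd3, the export adaptor of the large subunit (log2 fold change 0.36, edgeR adjusted p = 0.0267 with the block). Among 59 translation factors the median was 0.044, with 0 called and, with the block, 1 called as higher, eif4a3 of the exon junction complex (log2 fold change 0.24, edgeR adjusted p = 0.0315 with the block). Among 21 genes of mTOR signalling and pyrimidine-tract mRNA control the median was 0.0084 and 0 were called in either fit. Among 75 mitochondrial ribosomal proteins the median was 0.042, with 0 called in either fit. Estimates were above 0 in 53 of 75 (70.7%), where 49.1% of all genes were.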

How the data were processed

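RNA-seq counts of 6 libraries, 3 per genotype, were used. Per the labels and the study's methods, the authors filtered reads with fastp 0.18.0, took out reads of ribosomal RNA, aligned the others to GRCz11 with HISAT2, assembled transcripts with StringTie 1.3.1 and deposited whole, unnormalized counts per gene. The counting tool and its use of strand are not given in the sources used here. Replicates were grouped by their labels. Symbols came from a table of gene names. Differences were tested with edgeR 4.0.16 in R 4.3.3 (TMM scaling, filterByExpr, robust glmQLFit, glmQLFTest, Benjamini-Hochberg over 18487 genes), tested on simulated data first. DESeq2 1.42.0 was an alternative. Standard errors are the absolute log2 fold change over the square root of F, and 95% intervals use the total degrees of freedom. Log2 CPM used a prior count of 2. Deviations of same-numbered libraries correlated at 0.312 or more across all genes, so the numbers were taken to pair the libraries, and a fit with the number as a block was an alternative. Other alternatives were DESeq2's size factors, TMM without members, filters, robust=FALSE, shares of raw counts, and libraries left out. Named genes were members with the 5 highest and 5 lowest estimates, those without overlap, stalk and 5S proteins, rps19, paralogs, the 3 most and 3 least abundant members, and untested ones; others were named after their values were seen. Members and lists were chosen with earlier results of these data known. Some named genes are not reported here, and the plots of single genes leave them out.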

Additional observations from a re-analysis of the deposited data

How the results depend on the processing

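The count of members called stayed at 0 under every alternative run, of 80 tested or, without a filter, 81. The alternatives were DESeq2, DESeq2's size factors, TMM factors without members, robust=FALSE, no filter, a filter at a mean of 50 counts, each library left out and the replicate block. With the replicate block the medians were 0.026 (large subunit) and 5.1e-05 (small subunit), no call of a member changed, and the mean change of the large to small ratio within numbers was 1.67%. Leaving out both libraries of a number was added after seeing the data. With 1 library left out, the median log2 fold change ranged from -0.025 to 0.11 (large) and -0.060 to 0.062 (small), and with both libraries of a number left out from 0.019 to 0.046 and -0.0091 to 0.018. The summed level of all subunit genes changed by -2.29% to 6.46% with 1 library left out and by 1.17% to 2.33% with both left out, that of the large subunit by -1.88% to 7.15% and that of the small subunit by -3.02% to 5.35% with 1 left out. The ratio changed by 1.098% to 2.19% with 1 library and by 1.19% to 1.95% with both libraries left out. As shares of raw counts the sums changed by -2.08% (all), -1.47% (large) and -3.06% (small). The sign of small log2 fold changes turned with the filter in rps27.2 (-0.0020) at a mean of at least 50 counts and in rps27.1 (7.4e-04) without a filter. With libraries left out, singly or by number, the log2 fold change ranged from -0.032 to 0.080 in rpl11, -0.022 to 0.25 in rpl26, -0.024 to 0.071 in rpl3, -0.016 to 0.078 in ENSDARG00000015862 of rpl5, -0.23 to 0.012 in rpl7l1, -0.0055 to 0.099 in rplp0, -0.028 to 0.15 in rplp1 and -0.10 to 0.091 in rplp2. In small subunit genes it ranged from -0.13 to 0.034 in rps12, -0.031 to 0.12 in rps19, -0.096 to 0.25 in ENSDARG00000030408 and -0.091 to 0.20 in ENSDARG00000037071 of rps26, -0.060 to 0.045 in rps27.1, -0.036 to 0.047 in rps27.2, -0.074 to 0.35 in rps29 and -0.042 to 0.18 in rps4y2. The cause of these sign changes was not tested. With 1 library left out the sign held in rpl17 (0.0084 to 0.19), rpl22 (0.056 to 0.20), ENSDARG00000020197 of rpl5 (0.0074 to 0.089), rps19bp1 (-0.25 to -0.069), rps2 (0.0095 to 0.083) and rps25 (-0.12 to -0.028). The description of promoter tracts and its alternative were not run, since no promoter sequence was used here. The precision of each estimate is limited by the 3 libraries per group.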
